A study of Macaca mulatta with 24 samples.

Results

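The BCL2 family of apoptosis regulators was examined in the cerebral cortex of male rhesus monkeys that had lived on 1 of 3 diets for 24 months. The members were 10 genes fixed by name, and they were taken as every probe that the annotation of the Illumina HumanHT-12 V4.0 beadchip assigns to them and that had a detection p under 0.01 on at least 4 of the 24 arrays. All 10 genes had such a probe, out of 9884 genes that met the same condition with 1 probe standing for each gene. Of the 22 probes listed for the 10 genes, 12 were kept.

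The standard diet (SD, n = 4) drew 13% of its kcal from fat, with sucrose under 5% of its weight. The high-fat/high-sugar diet (HFS, n = 10) held 42% and 27%. The HFS+R group (n = 10) ate the HFS diet with resveratrol (RSV), a plant polyphenol, in 2 treats a day that each carried 40 mg during year 1 and 240 mg during year 2. The monkeys were 7 to 13 years old, each gave 1 array, and the SD and HFS groups received placebo treats. The study's methods give the temporal neocortex as the source of the RNA, while a figure title of the study names the frontal cerebral cortex. The probes were designed on human transcripts. A poor match to the monkey transcript could therefore lower a signal without a change in its messenger RNA. How well each probe matches was not examined.

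Proteins of this family decide whether the outer membrane of the mitochondrion stays sealed. The anti-apoptotic members (BCL2, BCL2L1, BCL2L2 and MCL1) bind and hold the effectors BAX and BAK1, which otherwise form pores that release cytochrome c and start the caspase cascade. BH3-only proteins such as BAD and BID tip the balance towards death by occupying the anti-apoptotic members or by activating the effectors, and BNIP3 and BNIP3L sit on the mitochondrial surface, where they recruit the autophagy machinery to remove mitochondria. In mature neurons BCL2L1, which encodes Bcl-xL, is the family member best known for keeping cells alive. Much of the family's activity is set by protein binding, phosphorylation and cleavage, none of which an array measures.

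Among these 10 genes, BCL2L1 alone passed the test, and it was lower in HFS+R than in HFS and than in SD. The 4 pro-apoptotic members (BAX, BAK1, BAD and BID) and the BNIP3 pair did not pass it in any of the 3 comparisons. The fall of BCL2L1 was read by the brighter of its 2 kept probes. The dimmer one lay higher in HFS+R on average, so the arrays do not give a single direction for the gene.

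The 10 probes that were not kept were detected on 0 arrays, whereas the kept probe nearest to the threshold, that of BNIP3L, was detected on 6. The undetected probes included both that target the beta transcript of BCL2, while both kept BCL2 probes target the alpha transcript. Probes of 6 genes (BCL2, BCL2L1, BCL2L2, MCL1, BAX and BAD) were detected on all 24 arrays. The other 4 were close to background. BNIP3 was detected on 17 arrays (3 of 4 SD, 6 of 10 HFS and 8 of 10 HFS+R), BAK1 on 10 (1, 4 and 5), BID on 8 (1, 4 and 3) and BNIP3L on 6 (0, 2 and 4). On an array where a probe is not detected, its level cannot be told from background, which limits what the differences in these 4 genes show.

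Signals in the deposited table were put on a common footing as in the study, by taking the log2 signal of each probe, subtracting the mean of its array and dividing by the SD of its array. The resulting Z scores were multiplied by 1 factor and shifted by 1 constant, so that levels and differences below read on a log2 scale. Arrays had between 11413 and 14890 detected probes of 47323. All 9 measured neuronal markers were detected on every array. The SD of the log2 signal over an array averaged 1.499 ± 0.0795 (SD, n = 4) in SD, 1.42 ± 0.0521 (n = 10) in HFS and 1.48 ± 0.0489 (n = 10) in HFS+R. Since Z normalization divides by this SD, and scaling by the array median does not, a result on a bright probe can depend on the choice between them.

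The brighter BCL2L1 probe (ILMN_1654118) stood at log2 levels of 10.73, 10.78, 10.84 and 10.78 on the 4 SD arrays. On the HFS arrays it ran from 10.39 to 10.95 with a median of 10.64, and on the HFS+R arrays from 10.11 to 10.56 with a median of 10.37. The SD arrays lay close together and every HFS+R array was below all of them, while HFS arrays spread across the space between and past both sides of the SD values and overlapped with HFS+R. Group means were 10.78 ± 0.044 (SD, n = 4), 10.62 ± 0.163 (n = 10) and 10.36 ± 0.134 (n = 10).

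**Figure D1:**
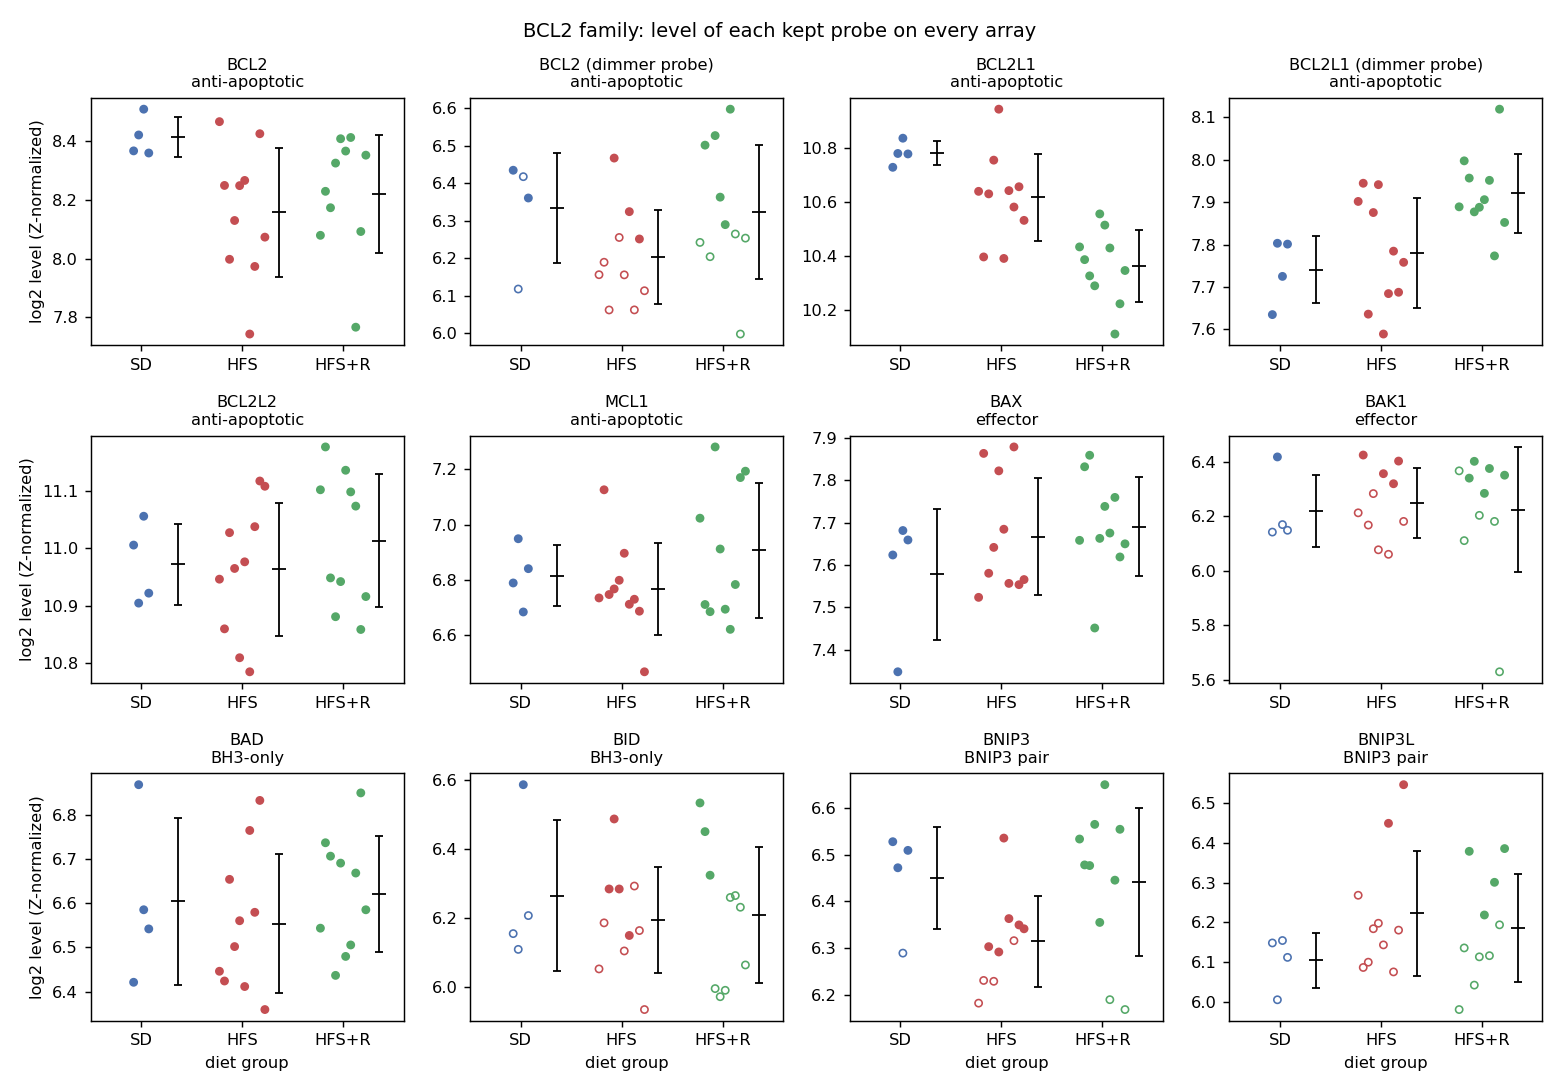
Level of each of the 12 kept probes on every array. The y axis is the Z-normalized log2 level, each point is 1 array of the SD, HFS or HFS+R group, filled where the probe was detected (p under 0.01) and open where it was not, and the bar beside each group is its mean ± SD; points are spread sideways in no order of meaning. BCL2L1 steps down from SD to HFS+R on its brighter probe (means 10.78, 10.62 and 10.36), and the dimmer probe does not (7.74, 7.78 and 7.92).

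The comparison of HFS+R with HFS asks what RSV adds to the high-fat/high-sugar diet, and BCL2L1 was its called member. In HFS+R against HFS the brighter BCL2L1 probe fell by 0.26 on the log2 scale (SE 0.065, limma adjusted p = 0.0107), with 10 of 10 HFS+R arrays below the HFS mean. That made 1 of 10 members lower, where 6.07% of all genes were lower, and 0 of 10 higher, where 9.94% were. At an unadjusted p under 0.05, 2 of 10 members (BCL2L1 and BNIP3) were past, against 31.4% of all genes. The study's thresholds were read as a Z ratio beyond 1.5 either way, an unadjusted p below 0.05 and a false discovery rate below 0.3. They were applied here to the limma p-values of the genes tested here, so the shares are not the study's own counts. By these thresholds 1 of 10 (BCL2L1, Z ratio −2.29) was past, against 26.4%. The median difference over the members was 0.037, and over all genes 0.022, so as a group the family did not stand apart from the other genes in this comparison.

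The call depends on how arrays are scaled. With quantile normalization the difference was −0.24 (adjusted p = 0.0157) and with neqc, which subtracts background first, −0.24 (adjusted p = 0.0214). Scaling each array by its median gave −0.060 (adjusted p = 0.70), with the median of all genes moved to 0.11 and calls over all genes going from 982 higher and 600 lower to 1410 higher and 73 lower. With the array SD as a covariate the difference was −0.23 (adjusted p = 0.0709). As deposited, the probe's signal had a median of 2075 in SD, 1493 in HFS and 1284 in HFS+R.

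The dimmer BCL2L1 probe (ILMN_1742410) was detected on all 24 arrays too and carries the same RefSeq transcript, that of the long form Bcl-xL; where each probe lies within the transcript was not given in the sources used here. Its log2 levels on the SD arrays were 7.63, 7.80, 7.72 and 7.80. They ran from 7.59 to 7.94 in HFS, with a median of 7.77, and from 7.77 to 8.12 in HFS+R, with a median of 7.90. HFS and HFS+R arrays overlapped, and HFS+R was higher by 0.14 on average (SE 0.055, adjusted p = 0.0781 over all kept probes), with 9 of 10 HFS+R arrays above the HFS mean. With quantile normalization this difference was 0.084 (adjusted p = 0.34). Scaling by the array median gave 0.23 (adjusted p = 0.0237), past the threshold and opposite in sign to the brighter probe. After the group means were taken away, both probes had a correlation of 0.25 over 24 arrays, a description of arrays that share labelling and hybridization. Averaging both probes gave −0.058 (adjusted p = 0.46) for HFS+R against HFS.

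The difference between the BCL2L1 probes within each array is given as a description, with no test, since it was looked at after the probes had been seen to move in opposite directions. On the log2 of the deposited signals it is untouched by scaling an array up or down. The brighter probe exceeded the dimmer by 2.86 to 3.32 in SD, 2.51 to 2.94 in HFS and 2.17 to 2.74 in HFS+R. All HFS+R arrays lay below all SD arrays, and HFS arrays overlapped with both groups. HFS+R minus HFS came to −0.29 (SE 0.0788), HFS+R minus SD to −0.65 (SE 0.112) and HFS minus SD to −0.36 (SE 0.111). On the Z-normalized scale the corresponding differences were −0.40, −0.60 and −0.20. The readings of both probes were thus closer to each other in HFS+R than in the other groups, which does not say which of them follows the abundance of BCL2L1 messenger RNA.

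**Figure D2:**
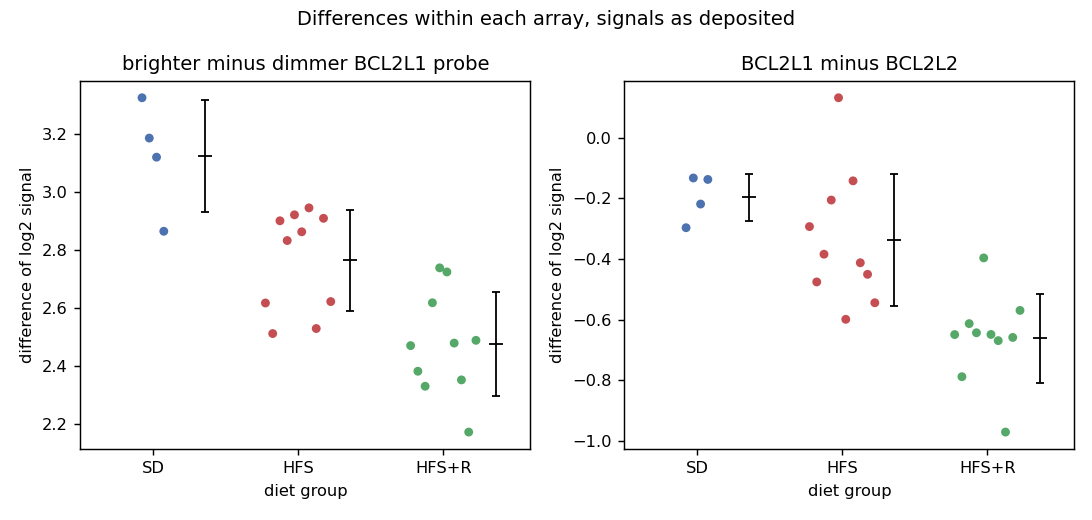
Differences within each array, on the log2 of the deposited signals, which do not change when an array is scaled up or down by a factor. Z normalization, which divides by the array SD, does change them. On the left is the brighter minus the dimmer BCL2L1 probe, on the right BCL2L1 (brighter probe) minus BCL2L2; each point is 1 array, and the bar beside each group is its mean ± SD. In both panels all HFS+R arrays lie below all SD arrays, and HFS arrays overlap with both groups.

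BCL2L2 encodes Bcl-w, a close relative of Bcl-xL that also protects neurons, and its probe was among the brighter ones of the family, with signals of 1471 to 2852. Its log2 levels were 11.01, 10.90, 11.06 and 10.92 on the SD arrays, 10.79 to 11.12 in HFS (median 10.97) and 10.86 to 11.18 in HFS+R (median 11.01), so that the groups overlapped throughout. HFS+R differed from HFS by 0.050 (SE 0.055, adjusted p = 0.57). Under scaling by the array median it was the member called in place of BCL2L1, with a difference of 0.26 (adjusted p = 0.0467). The dimmer BCL2L1 probe, which does not stand for its gene, was also past the threshold there, as higher in HFS+R. The difference between BCL2L1 and BCL2L2 within an array moved little with the scaling. It averaged −0.20 ± 0.0776 (SD, n = 4) in SD, −0.34 ± 0.218 (n = 10) in HFS and −0.66 ± 0.147 (n = 10) in HFS+R on the log2 signals. HFS+R minus HFS came to −0.32 on the log2 signals and to −0.31 after Z normalization, given here as a description, since the pair was picked after the values were seen.

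BCL2, the founding member of the family, showed its lower values in HFS. Its brighter probe stood at 8.37, 8.42, 8.51 and 8.36 on the SD arrays, from 7.74 to 8.47 in HFS (median 8.19) and from 7.77 to 8.41 in HFS+R (median 8.28). The SD arrays were at the upper end of the range of the other groups, which overlapped with them and with each other. HFS differed from SD by −0.26 (SE 0.114, adjusted p = 0.35), with 8 of 10 HFS arrays below the SD mean. HFS+R differed from HFS by 0.063 (SE 0.086, adjusted p = 0.65). The dimmer BCL2 probe, detected on 10 arrays, gave −0.13 for HFS against SD and 0.12 for HFS+R against HFS, the same signs, and was not past the test in either (adjusted p = 0.58 and 0.24 over all kept probes).

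MCL1, a short-lived protein that holds BAK1 and is needed for the survival of developing neurons in mice, had log2 levels of 6.79, 6.95, 6.68 and 6.84 in SD, 6.47 to 7.13 in HFS (median 6.74) and 6.62 to 7.28 in HFS+R (median 6.85). The highest 3 of all readings were HFS+R arrays, the groups overlapped otherwise, and the HFS+R mean was higher than that of HFS by 0.14 (SE 0.086, adjusted p = 0.27). In SD, 4 of 4 arrays lay within the HFS range.

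BAX, the effector that moves from the cytosol to the mitochondrion, stood at 7.62, 7.35, 7.68 and 7.66 in SD, 7.52 to 7.88 in HFS (median 7.61) and 7.45 to 7.86 in HFS+R (median 7.67). The groups overlapped over most of their range, with 1 SD array the lowest of all. HFS+R differed from HFS by 0.023 (SE 0.062, adjusted p = 0.84), HFS from SD by 0.089 (SE 0.082, adjusted p = 0.67) and HFS+R from SD by 0.11 (SE 0.082, adjusted p = 0.48). The sign of the first turned under quantile normalization and neqc. BAK1, the effector that resides in the outer membrane, ran from 5.63 to 6.43 over all arrays. Its SD values were 6.14, 6.42, 6.17 and 6.15, of which only 6.42 was a detected reading, and the difference between HFS+R and HFS was −0.024 (SE 0.080, adjusted p = 0.87).

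BAD, which loses its grip on Bcl-xL when it is phosphorylated and bound by 14-3-3 proteins, had levels of 6.42, 6.87, 6.59 and 6.54 in SD, 6.36 to 6.83 in HFS (median 6.53) and 6.44 to 6.85 in HFS+R (median 6.63). All 3 groups covered nearly the same range. HFS+R differed from HFS by 0.067 (SE 0.069, adjusted p = 0.54). BID, which caspase-8 cleaves to link death receptors to mitochondria, ran from 5.93 to 6.59 over all arrays and differed between HFS+R and HFS by 0.015 (SE 0.081, adjusted p = 0.93). For both genes all 3 comparisons missed the threshold.

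BNIP3, a target of hypoxia-inducible factor 1, was the member next to BCL2L1 by its p in HFS+R against HFS. It stood at 6.53, 6.47, 6.29 and 6.51 in SD, 6.18 to 6.54 in HFS (median 6.31) and 6.17 to 6.65 in HFS+R (median 6.48). HFS arrays lay mostly under those of the other groups and overlapped with both. The mean was higher in HFS+R by 0.13 (SE 0.061, adjusted p = 0.15), with 8 of 10 arrays above the HFS mean, and lower in HFS than in SD by a difference of −0.14 (SE 0.081, adjusted p = 0.48). Neither passed the test, and 7 of the 24 readings were not detected. BNIP3L, which clears mitochondria from maturing red cells, had its highest values on 2 HFS arrays (6.45 and 6.55) and differed between HFS+R and HFS by −0.037 (SE 0.065, adjusted p = 0.74).

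**Figure D3:**
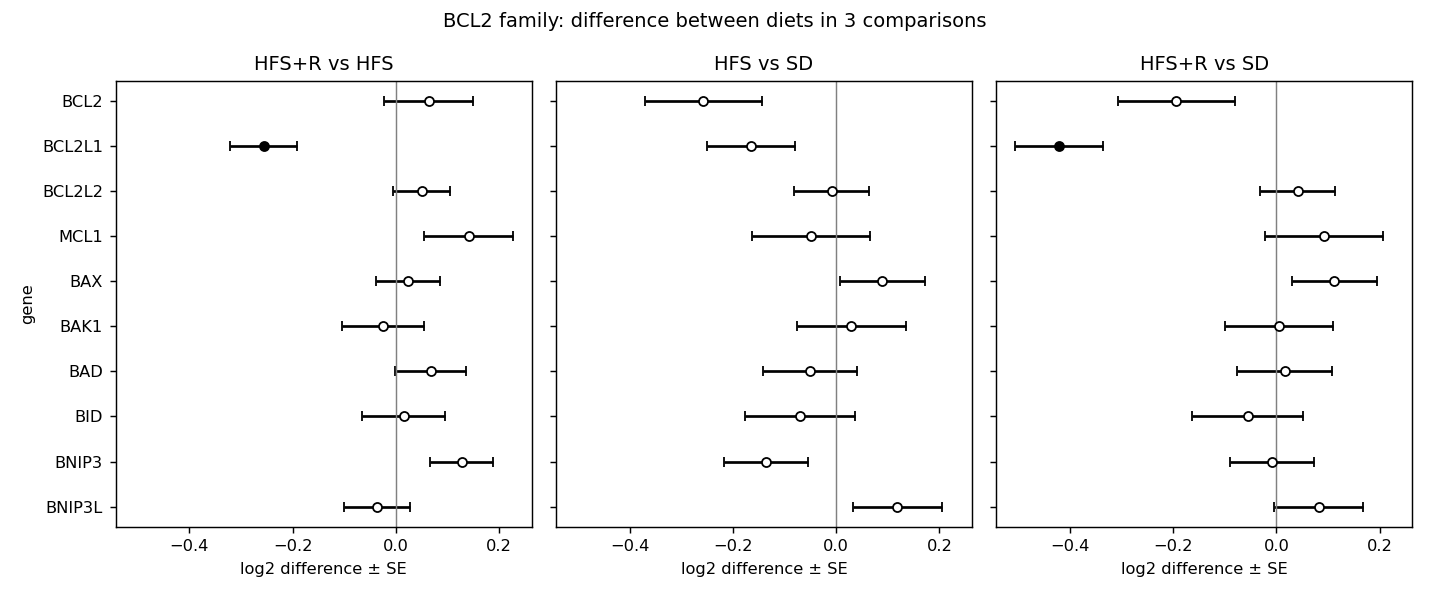
Difference between diet groups for each of the 10 genes in the 3 comparisons. The x axis is the difference of group means on the Z-normalized log2 scale with its standard error from limma, and filled circles mark an adjusted p under 0.05 over all 9884 genes. BCL2L1 is filled in HFS+R vs HFS (−0.26) and in HFS+R vs SD (−0.42), and no gene is filled in HFS vs SD.

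The diet without RSV changed no member past the test. In HFS against SD, 0 of 10 members were higher and 0 of 10 lower by limma, and neither was any other gene (0% in each direction). At an unadjusted p under 0.05 there was 1 of 10 members, BCL2, against 12.6% of all genes. At the study's thresholds there were 0 of 10, against 5.38%, and BCL2 missed them by its false discovery rate with a Z ratio of −2.31. All 4 anti-apoptotic members had a negative difference, from −0.26 for BCL2 over −0.16 for BCL2L1 (SE 0.086, adjusted p = 0.42) and −0.049 for MCL1 to −0.0088 for BCL2L2, in a comparison where 5748 of 9884 genes had one. The sign for MCL1 turned with the array SD as a covariate, and that for BCL2L2 with array weights. With 4 SD arrays the precision of these differences is limited.

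Against SD the HFS+R group showed the larger difference in BCL2L1, and HFS+R shares its arrays with the comparison above. The brighter probe was lower by a difference of −0.42 (SE 0.086, adjusted p = 0.0034), and the groups did not overlap. That made 1 of 10 members lower, where 4.10% of all genes were lower, and 0 of 10 higher, where 2.21% were. Groups did not overlap for 1 of 10 members, and for 4.01% of all genes. At an unadjusted p under 0.05 there was 1 of 10, against 20.4%, and at the study's thresholds 1 of 10 (Z ratio −3.13), against 17.6%. Under scaling by the array median the difference was −0.50 (adjusted p = 0.0215), and with the array SD as a covariate −0.43 (adjusted p = 0.0024). The mean of both probes gave −0.12 (adjusted p = 0.32), and the dimmer probe alone 0.18 (SE 0.072, adjusted p = 0.14 over all kept probes), with 10 of 10 HFS+R arrays above the SD mean. BCL2 differed by −0.19 (SE 0.114, adjusted p = 0.35), with 10 of 10 HFS+R arrays below the SD mean. The other 8 members had differences from −0.056 for BID to 0.11 for BAX.

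**Figure D4:**
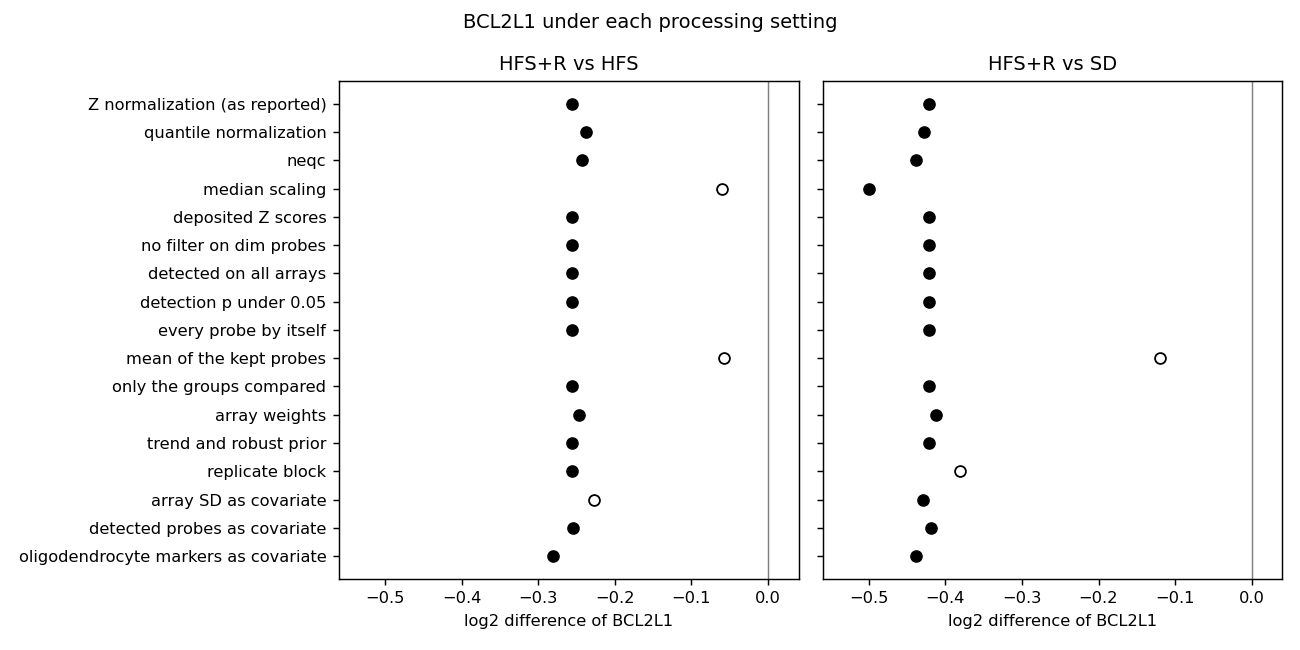
Difference in BCL2L1 (log2 scale, x axis) under the reported processing and each other setting (rows), for HFS+R vs HFS on the left and HFS+R vs SD on the right. Filled circles mark an adjusted p under 0.05. All values are below 0; on the left those for median scaling (−0.060), the mean of the kept probes (−0.058) and the array SD as a covariate (−0.23) are open, and on the right those for the mean of the kept probes (−0.12) and the replicate block (−0.38).

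The order of the diets for the brighter BCL2L1 probe was SD, HFS and HFS+R from high to low, with neighbours SD and HFS not separated by the test. On the dimmer BCL2L1 probe the means ran the other way (7.74 in SD, 7.78 in HFS and 7.92 in HFS+R). For BCL2 the order was SD, HFS+R and HFS, and the HFS mean was likewise the lowest for MCL1, BNIP3, BCL2L2, BAD and BID. None of these had a difference past the test between any neighbours. The HFS+R mean was nearer to that of SD than the HFS mean was for BCL2, BNIP3, BAD, BID, BAK1 and BNIP3L. It was farther from it for BCL2L1, BCL2L2, BAX and MCL1. For MCL1 the HFS+R mean lay above that of SD by 0.092.

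Pro- and anti-apoptotic members were also set side by side on each array, as the mean of 4 genes on each side after each gene was centred over all arrays. This is a description, as the members were picked by name with results of these data known. The anti-apoptotic mean was 0.077 to 0.13 on the SD arrays. It was −0.18 to 0.076 on the HFS arrays and −0.21 to 0.059 on the HFS+R arrays. SD lay above all HFS and HFS+R arrays, though narrowly (0.0769 on its lowest array, 0.0757 on the highest HFS array). This mean takes BCL2L1 from its brighter probe, and without BCL2L1 the SD arrays overlapped with those of the other groups. The pro-apoptotic mean ran from −0.089 to 0.081, −0.16 to 0.093 and −0.10 to 0.13, and the groups overlapped throughout. Pro- minus anti-apoptotic, the means were −0.11 ± 0.0498 (SD, n = 4), 0.011 ± 0.0951 (n = 10) and 0.032 ± 0.144 (n = 10), below 0 on 4 of 4 SD arrays, 5 of 10 HFS arrays and 5 of 10 HFS+R arrays. Without BCL2L1 they were −0.060, 0.044 and −0.020, and in both forms SD arrays overlapped with those of the other groups. With BAX and BAD alone on the pro-apoptotic side and BCL2L1 kept, the means were −0.13, 0.0041 and 0.050, and the SD arrays again overlapped with the others.

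**Figure D5:**
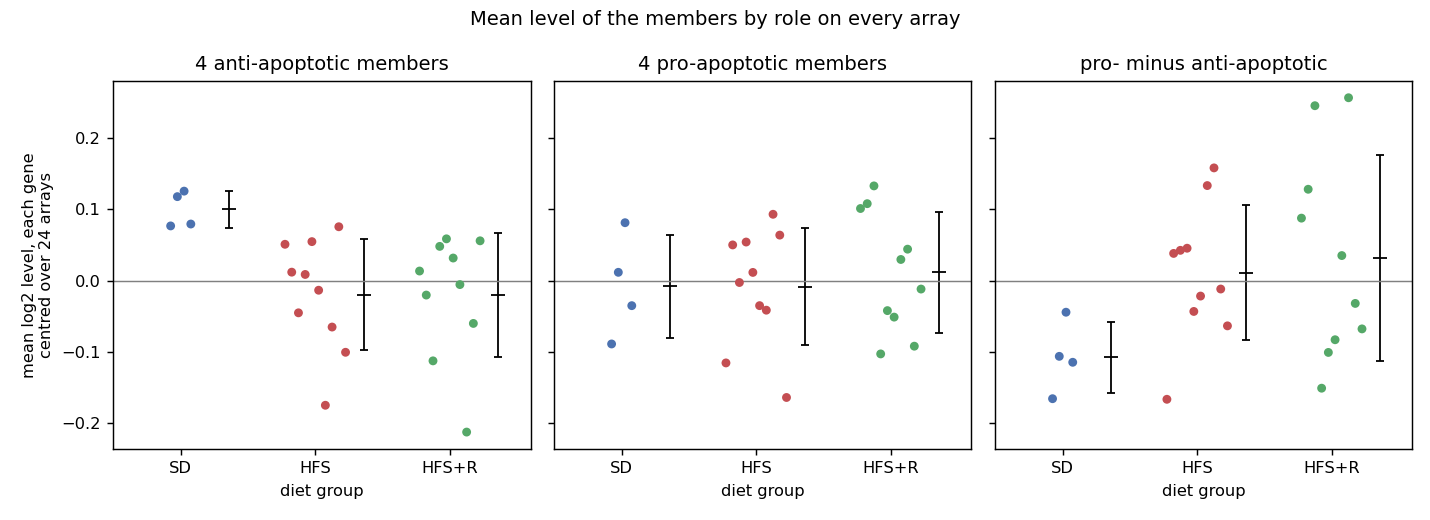
Mean log2 level of the 4 anti-apoptotic members (left), the 4 pro-apoptotic members (middle) and their difference (right) on every array, each gene centred over the 24 arrays. Points are arrays and the bar beside each group is its mean ± SD. The SD arrays lie from 0.077 to 0.13 on the left, above all others, while in the middle the 3 groups overlap. The middle and right panels include BAK1 and BID, which were not detected on most arrays. The gap on the left is narrow (0.0769 lowest in SD, 0.0757 highest in HFS) and is absent without BCL2L1.

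Within diets the members did not move as a block. Of the 45 pairs of genes, correlations over the 24 arrays after removal of the group means ran from −0.64 (BCL2L2 with MCL1) to 0.45 (BAX with BID), in arrays that share labelling and hybridization. Within diets the levels of these genes also correlated with the array SD, by which Z normalization divides. The r was 0.45 for MCL1, −0.35 for BCL2L2, −0.38 for BAX and −0.42 for BID. The part of the array SD in the correlations between genes was not tested. The genes whose pattern over the 24 arrays was most like BCL2L1 were MAD1L1 (r = 0.75), DPP7 (0.74) and BIN1 (0.73), of which DPP7 (−0.36, adjusted p = 0.0034) and BIN1 (−0.29, adjusted p = 0.0192) were lower in HFS+R than in HFS. For MCL1 they were LBR (0.86), PPM1K (0.85) and PAFAH1B2 (0.81), and of these LBR (0.25, adjusted p = 0.0369) and PPM1K (0.32, adjusted p = 0.0129) were higher. For BNIP3 they were ZNF830 (0.76), EID2 (0.75) and TMEM50B (0.74), and all 3 missed the test.

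Beyond the 10 members, 7 of 15 further listed relatives of the family had a kept probe, and 0 of them passed the test in any comparison. BCL2L13, a mitochondrial receptor for mitophagy, had the smallest p in HFS+R against HFS (0.10, adjusted p = 0.23). Of binding partners of the family, 20 of 23 listed were measured, and in HFS+R against HFS 5 were higher and 3 lower, where 9.94% of all genes were higher and 6.07% lower. BAG4, a cochaperone that silences death receptors, fell by 0.53 (SE 0.103, adjusted p = 0.0023), and YWHAE, the 14-3-3 epsilon protein that can bind phosphorylated BAD, fell by 0.40 (SE 0.078, adjusted p = 0.0024). ITPR1, the calcium channel of the endoplasmic reticulum that BCL2 binds, was higher by 0.30 (SE 0.058, adjusted p = 0.0025), and SH3GLB1, which binds BAX, by 0.23 (SE 0.061, adjusted p = 0.0123). These 4 kept their direction and their call with quantile normalization, neqc and scaling by the median. Against SD, 2 partners were higher and 2 lower in HFS+R, where 2.21% of all genes were higher and 4.10% lower. Among these partners were BAG4 (−0.77, adjusted p = 0.0011) and ITPR1 (0.31, adjusted p = 0.0160).

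Downstream of the mitochondrion, 11 of 15 listed genes of the apoptosome and the caspases were measured and 0 passed the test. In HFS+R against HFS, to which the values that follow belong, 9.94% of all genes were higher and 6.07% lower. CASP6, an effector caspase of axons, had the smallest p (0.19, adjusted p = 0.0741), and CYCS, cytochrome c itself, differed by 0.094 (adjusted p = 0.52). CASP6 was detected on 2 SD, 1 HFS and 6 HFS+R arrays, so it met the detection condition only through the HFS+R arrays. Its HFS readings were mostly at background, which limits what this difference shows. Of 2 measured caspase inhibitors of 8 listed, BIRC6 was higher by 0.25 (adjusted p = 0.0431, and 0.0668 after quantile normalization). Of 12 measured mitophagy genes of 15 listed, TBK1, a kinase of autophagy receptors, was higher by 0.25 (adjusted p = 0.0495) and MAP1LC3A, an LC3 of the autophagosome, lower by a difference of −0.27 (adjusted p = 0.0208). Both calls were lost with quantile normalization (adjusted p = 0.0764 and 0.0794), under which GABARAPL2, a relative of LC3, was called higher instead (0.20, adjusted p = 0.0052, against 0.053 and 0.57 after Z normalization). In HFS against SD, 0 genes of these lists passed the test.

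Of upstream regulators of the family, 14 of 18 listed were measured, and 2 were higher and 2 lower in HFS+R than in HFS. Over all genes 9.94% were higher and 6.07% lower. FOXO3, a transcription factor that drives BH3-only genes, fell by 0.65 (SE 0.135, adjusted p = 0.0040), and CREB1, which drives BCL2 and MCL1, fell by 0.46 (SE 0.106, adjusted p = 0.0067, and 0.25 under median scaling). HIF1A, whose protein drives BNIP3 in hypoxia, was higher by 0.47 (SE 0.108, adjusted p = 0.0062), and MAPK9, a kinase of the JNK group, by 0.24 (SE 0.079, adjusted p = 0.0404). BNIP3, BCL2 and MCL1 themselves did not pass the test in this comparison.

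The cortex holds many cell types, and in whole tissue fewer cells of a type and less RNA per cell cannot be told apart. Beside the fall of BCL2L1 in HFS+R against HFS, 3 of 9 measured oligodendrocyte markers (MOG, UGT8 and ERMN) were higher. For this and the marker counts below, the share over all genes was 9.94% higher and 6.07% lower. The summed log2 level of the oligodendrocyte list was 82.8 to 84.3 in SD, 78.7 to 85.8 in HFS and 83.0 to 88.3 in HFS+R. Of its 9 genes 7 to 9 were detected on an array, and ERMN was detected on 3 SD, 1 HFS and 5 HFS+R arrays. With the level of this list as a covariate the BCL2L1 difference was −0.28 (adjusted p = 0.0218). Of 6 astrocyte markers GJA1 was higher and ALDH1L1 lower, and of 9 neuronal markers ENO2 was lower. Under median scaling ALDH1L1 missed the test (−0.21, adjusted p = 0.26). With neqc 0 neuronal markers were called in either direction, and with median scaling 1 was called higher and 0 lower. Microglial, endothelial, mural and blood markers had 0 genes past the test, and the summed log2 level of the 4 blood genes was 28.7 to 32.6 in SD, 28.4 to 38.0 in HFS and 27.4 to 37.01 in HFS+R. The part of these other lists in the BCL2L1 result was not tested.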

How the data were processed

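RNA of the cerebral cortex of 24 monkeys was hybridized to Illumina HumanHT-12 V4.0 beadchips at 1 array a monkey, and diets and replicate numbers come from the labels. The authors deposited signal intensity per probe, made with GenomeStudio 2011.1, beside a detection p-value that the authors took from the same software. The treatment of background is not given in the sources used here. Signals ran from 9 to 23605.5, and the number of arrays sets the precision. A second deposited table gives Z scores for the same probes. Those recomputed from the signals differed by at most 5e-10.

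Z scores were multiplied by 1.46 and 6.46 was added. Of 47323 probes 15531 were kept, 12471 of them with 1 symbol, and the kept probe with the highest mean stood for a gene. Diets were compared in 1 model over 24 arrays with limma 3.58.1 (R 4.3.3, statmod 1.5.0, empirical Bayes, 2-sided), with Benjamini-Hochberg adjustment over 9884 genes and a threshold of 0.05. A fit over every kept probe with 1 symbol gave the adjusted p of second probes. The study's text gives its false discovery rate as above 0.3, which was read here as under 0.3. The study's thresholds were applied to the limma p and adjusted p, with Z ratios computed over all 47323 probes. The p-values weigh a difference of group means against the spread between animals within diets. With 1 array a monkey, that spread also holds differences between arrays. Differences between probes within an array are given with the standard error of a difference of group means, without a test. Figures were drawn with matplotlib 3.10.9 in Python 3.11.15. The limma fit was tested on simulated arrays.

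The members and lists were chosen with earlier results of these data known. Every member is named. Of each other list, up to 4 genes called in HFS+R against HFS are named by smallest p, or up to 2 where none was called, with CYCS and GABARAPL2 added after their values were seen. For the 3 members with the smallest p, the 3 genes of highest Pearson r within diets are named. Alternatives for the scaling were quantile normalization, neqc (offset 16), median scaling and the deposited Z scores. Those for the probes were no filter, detection on every array, a looser detection p of 0.05, each probe separately and the mean of the kept probes. Those for the model were a fit of 2 groups at a time, weights for arrays, a robust prior with a trend, a block for the replicate number, 3 covariates (array SD, detected probes, oligodendrocyte markers), the study's thresholds, and each array left out in turn. Some listed genes are not analysed here. No sequences are shown, as none of the probes' sequences was in the sources used here.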

Additional observations from a re-analysis of the deposited data

Results flagged for a closer look

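Of 36 groups of values tested for an array apart from the rest (12 probes in 3 diets), 4 held one by Dixon's criterion, which chance meets in about 1 group in 20. BCL2 in HFS+R was lowest on replicate 7, at a log2 level of 7.77 with the next array at 8.08. BAK1 in SD was highest on replicate 2, at 6.42 against 6.17, the one SD array on which it was detected. BAK1 in HFS+R was lowest on replicate 8, at 5.63 against 6.11, a reading with a detection p of 0.54. BNIP3 in HFS was highest on replicate 5, at 6.54 against 6.36. No BCL2L1 value stood apart in any diet on either probe by this criterion.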

How the results depend on the processing

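In HFS vs SD, 0 members were called under every setting run. In HFS+R vs HFS, 1 member was called except with the mean of the kept probes (0, BCL2L1 −0.058) and the array SD as a covariate (0, BCL2L1 −0.23). Median scaling also gave 1, but it was BCL2L2. The dimmer BCL2L1 probe was then higher by 0.23 (adjusted p = 0.0237 over all kept probes). In HFS+R vs SD the called member was BCL2L1 throughout, except with the mean of the kept probes (0) and the replicate block (0). With that block BCL2L1 stood at −0.38 and 0 of 9884 genes were called. The averaging joins probes that moved in opposite directions; the cause of the other losses was not tested. Replicate numbers come from different animals and did not pair the arrays (correlations of −0.12 to 0.25 in HFS+R vs HFS, 2 of 10 over 0.1), and the replicate block left the count there at 1, BCL2L1. With each array left out in turn BCL2L1 stayed called, with an adjusted p of 0.0044 to 0.0232 against HFS and 0.0024 to 0.0166 against SD. Calls over all genes were 1582 in HFS+R vs HFS and 623 against SD, but 402 with the array SD and 900 with the oligodendrocyte markers as covariates in the first, and 361 with median scaling and 977 with the array SD in the second. The split of higher and lower calls was 982 to 600 and 218 to 405, and with median scaling 1410 to 73 and 30 to 331.

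Differences that changed sign belong to members not past the test. Median scaling gave −0.0088 for BAD, −0.016 for BAK1 and −0.035 for BCL2L2 in HFS+R vs SD, and −0.015 for BAK1 and −0.022 for BAX in HFS vs SD. Quantile normalization gave −0.0025 for BAK1 in HFS+R vs SD and −0.030 for BAX in HFS+R vs HFS, where neqc gave −0.038. Array weights gave −0.065 for BAD and −0.074 for BAK1 in HFS+R vs SD, and −0.029 for BAK1 and 0.027 for BCL2L2 in HFS vs SD. The replicate block gave −0.0097 for BAD, −0.0036 for BCL2L2 and 0.033 for BNIP3 in HFS+R vs SD, and −0.034 for BAK1 and 0.013 for BID in HFS vs SD. The oligodendrocyte covariate gave −0.013 for BAD and −0.012 for BAK1 in HFS+R vs SD, and the array SD 0.0046 for BNIP3 there and 0.072 for MCL1 in HFS vs SD. Leaving out 1 array gave ranges across 0 in HFS vs SD for BAD (−0.11 to 0.037), BCL2L2 (−0.031 to 0.019) and BID (−0.12 to 0.037), in HFS+R vs HFS for BAK1 (−0.045 to 0.042) and BID (−0.021 to 0.047), and in HFS+R vs SD for BAD (−0.045 to 0.10), BAK1 (−0.021 to 0.071), BID (−0.11 to 0.052) and BNIP3 (−0.062 to 0.022).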
